A study of Mus musculus with 30 samples.

Results

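The 9 genes described here mark the step at which a neural progenitor commits to making a neuron. They were chosen by symbol: Neurog1, Neurog2, Neurod1, Neurod4, Insm1, Nhlh1, Nhlh2, Btg2 and Gadd45g. All 9 were found among the 14997 genes with values in captured midbrain floor plate cells, and 7 of them among the 26005 genes counted in cultured spheres. Neurog2 and Nhlh1 were not analysed in the spheres.

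Polyadenylated RNA was profiled in 30 mouse libraries. In 20 of them, floor plate cells labelled through Lmx1aCreERT2 were taken by laser capture from mice with the genotype label Lmx1aCreERT2; R26TRAPC. The embryonic libraries are 4 from E11, 5 from E13 and 5 from E18 (embryonic days), and 6 are from P70 (a postnatal day). All captured ages carry the same genotype label, so there is no captured library without the Cre driver, an inducible recombinase under control of the floor plate gene Lmx1a. The other 10 libraries came from adult sphere cultures, MB1 to MB5 and FB1 to FB5. The design text mentions neurospheres of the adult lateral ventricle and, of the midbrain aqueduct, ependymal spheres; which of these MB and FB stand for is not written in the labels. They name neither animals nor cultures, so the p-values measure only the spread between these libraries, which may be technical.

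The proneural basic helix-loop-helix (bHLH) factors Neurog1 and Neurog2 bind E-boxes in DNA as dimers with E proteins and start the neuronal programme. They raise Notch ligands, which hold neighbouring cells back as progenitors, and they switch on a second tier of factors, among them Neurod1, Neurod4, Nhlh1, Nhlh2 and the zinc-finger repressor Insm1. Btg2, also called Tis21, is an antiproliferative gene known for marking progenitors in their neurogenic division, and Gadd45g is a growth arrest gene of neurogenic progenitors. In the ventral midbrain, Neurog2 is required for the normal generation of dopamine neurons from floor plate progenitors. Btg2 and Gadd45g are also known as stress- and stimulus-induced genes outside neurogenesis.

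The start sites of 8 of the 9 genes have an entry in the RefSeq promoter table for GRCm38.p6, and Insm1 has none. The 250 bases before each start were searched on both strands for the E-box CANNTG, for CAGATG, an E-box of the kind that neurogenins and NeuroD factors bind (every match is also a CANNTG match), and for the cAMP response element TGACGTCA. Of 32851 promoter windows of that length, 66.2% held CANNTG, 14.4% CAGATG and 1.55% TGACGTCA. Windows of 4 genes held an E-box (Neurod1, Nhlh1, Nhlh2 and Gadd45g), and those of Neurog1, Neurog2, Neurod4 and Btg2 held none. CAGATG was found in Nhlh1, 203 bases before the start, and in Nhlh2, 127 bases before it. Gadd45g held 3 other E-boxes, 142, 104 and 55 bases before the start. Btg2 held TGACGTCA 166 bases before its start. A match is a description of the sequence and not evidence of binding. The stretches below are those of the 2 genes with CAGATG and of the pair of genes followed through every group, with E-boxes in capitals for Nhlh1, Nhlh2 and Gadd45g and the cAMP response element in capitals for Btg2. They lie at chr1:172057597-172057846 (minus strand, Nhlh1), chr3:102009895-102010075 (plus strand, Nhlh2, shortened to 181 bases so as to end before the annotated gene), chr13:51846425-51846674 (plus strand, Gadd45g) and chr1:134079156-134079405 (minus strand, Btg2), and read 5′ to 3′ along the gene.
Nhlh1: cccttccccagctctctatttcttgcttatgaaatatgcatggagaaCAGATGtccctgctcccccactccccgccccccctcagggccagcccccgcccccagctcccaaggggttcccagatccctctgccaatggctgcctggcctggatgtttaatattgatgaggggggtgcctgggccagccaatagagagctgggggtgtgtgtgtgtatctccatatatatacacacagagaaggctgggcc
Nhlh2: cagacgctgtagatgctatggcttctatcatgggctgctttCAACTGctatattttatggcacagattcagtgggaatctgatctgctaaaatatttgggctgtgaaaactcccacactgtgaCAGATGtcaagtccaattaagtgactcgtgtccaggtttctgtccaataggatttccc
Gadd45g: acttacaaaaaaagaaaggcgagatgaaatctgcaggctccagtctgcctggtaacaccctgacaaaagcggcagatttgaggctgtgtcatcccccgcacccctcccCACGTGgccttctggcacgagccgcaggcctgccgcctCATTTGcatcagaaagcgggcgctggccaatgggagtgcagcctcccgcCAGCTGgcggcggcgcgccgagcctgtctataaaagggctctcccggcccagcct
Btg2: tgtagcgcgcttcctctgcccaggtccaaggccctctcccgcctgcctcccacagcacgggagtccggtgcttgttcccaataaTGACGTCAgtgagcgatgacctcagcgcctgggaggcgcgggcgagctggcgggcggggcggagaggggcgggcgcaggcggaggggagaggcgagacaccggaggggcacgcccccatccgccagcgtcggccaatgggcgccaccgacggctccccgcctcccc

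Captured values are given in the units deposited, which behave as RPKM (reads per length of transcript and per depth), so that levels can be set side by side between genes whose step between values matched an annotated transcript length. That was so for all of the 9 but Neurod4. Values are present for a gene at those ages where its mean reached 1 unit. The number of the 9 genes with values was 9 at E11, then 8 (E13), 5 (E18) and 4 (P70). Neurog1 had none after E11. Neurog2, Neurod4 and Nhlh1 had none at E18 and P70, and Neurod1 had none at P70. For these no fold against the missing age is given. In bulk RNA, fewer cells of a type and less RNA per cell cannot be told apart.

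The captured libraries held 2432883 to 3781844 recovered reads at the embryonic ages and 1048414 to 2421430 at P70, counted over 9300 genes, and the spheres held 6327198 to 9291311 counts. Of the floor plate markers (Lmx1a, Foxa1, Foxa2, Shh, Corin, Msx1, Ntn1), all but Shh and Corin had values at every age, and these 5 summed to 278 to 540 units in the 14 embryonic libraries and to 86.4 to 145 at P70. The 4 ependymal markers with values at every age summed to 14.0 to 59.8 units at E11 and E13, to 2160 to 3170 at E18 and to 5260 to 7590 at P70. Erythroid genes were high at E11 (8090 to 23400 units) and E13 (3610 to 13500), and fibroblast and meninges genes at E11 (299 to 829, against 52.6 to 153 at E13). In E11 library 1 the fibroblast sum was the highest of the 4 (829), and that library was the lowest for 6 of the 9 genes. The part of these other cell types in the results was not tested.

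**Figure D1:**
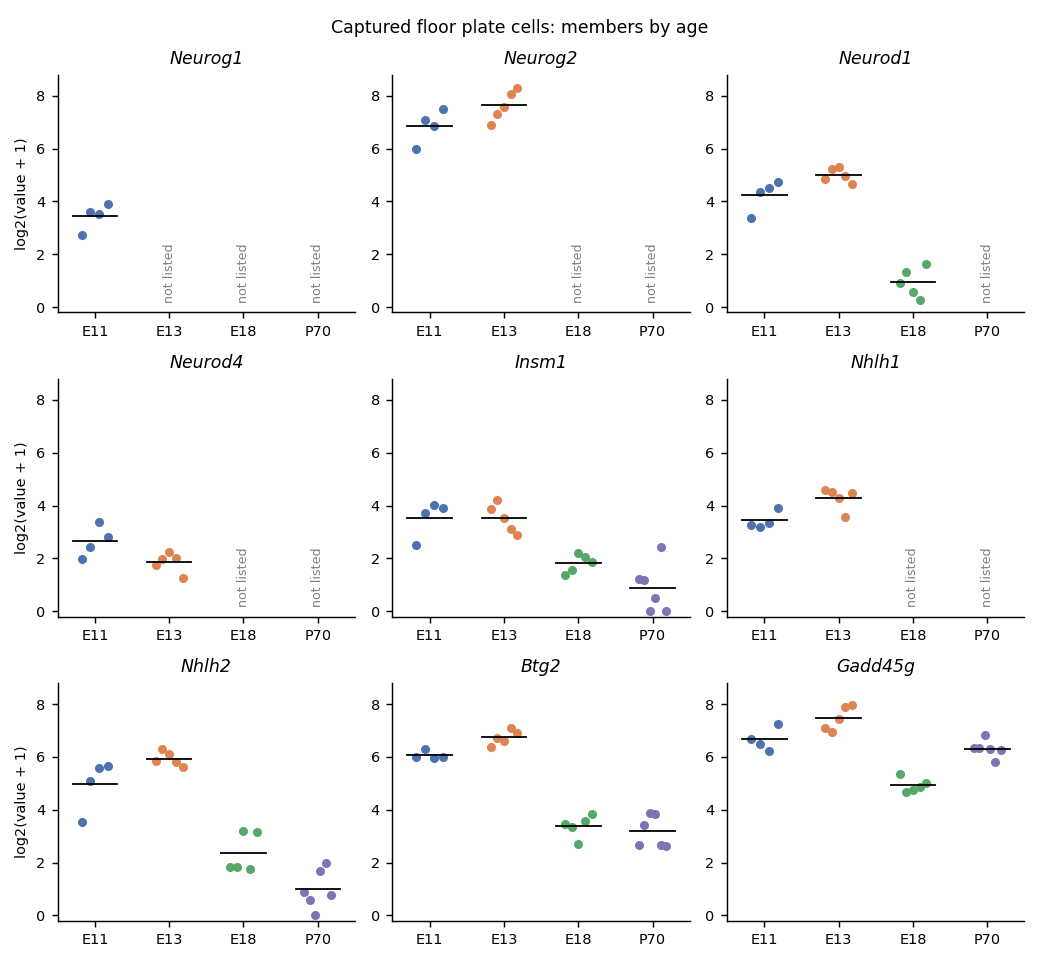
Each point is 1 captured library (4, 5, 5 and 6 in order of age), drawn as log2(value + 1) of the deposited units, and each bar is the mean of an age. For each of the 5 genes with values at E18, all E18 points lie below all E13 points, and Gadd45g alone has all its P70 points above all its E18 points.

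Of the pair of proneural factors at the head of the programme, Neurog2 was far the more abundant. Neurog2 (chromosome 3, 127633135 to 127635631, plus strand, GRCm38) had 62.4, 134, 114 and 181 units in the 4 E11 libraries, a mean of 123 ± 49.2 (SD, n = 4). At E13 it had 119, 157, 188, 270 and 313 units, a mean of 209 ± 80.5 (SD, n = 5). The ages overlap, with 2 E13 libraries inside the E11 range and 3 above it. Between 643 and 2677 recovered reads lay behind each value. The difference of 0.77 on the log2(value + 1) scale (SE 0.33) did not pass at E13 against E11 (limma adjusted p = 0.126).

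Neurog1 (chromosome 13, 56250478 to 56252163, minus strand), the close relative of Neurog2, had 5.55, 11.2, 10.4 and 14.1 units at E11, a mean of 10.3 ± 3.56 (SD, n = 4), on 43 to 105 reads. Library 1 was the lowest here as it was for Neurog2. Neurog1 had no values at the later ages, so no comparison was possible.

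Of the second tier, Neurod1 (chromosome 2, 79452521 to 79456751, minus strand), a bHLH factor of differentiating neurons, had 9.32, 19.5, 21.7 and 25.8 units at E11 (19.1 ± 7.01 SD, n = 4). At E13 it had 28.0, 36.6, 38.8, 29.8 and 24.4 units (31.5 ± 6.0 SD, n = 5). At E18 it had 0.856, 1.54, 0.483, 0.190 and 2.09 units (1.03 ± 0.777 SD, n = 5), on only 2 to 22 reads a library. All E13 libraries but library 5 stood above all of E11, and all 5 E18 libraries stood below every earlier one. Its mean at E13 was 30.6 times that at E18, the largest such quotient among the 5 genes with values at both ages.

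Nhlh2 (chromosome 3, 102010076 to 102015492, plus strand), a bHLH factor of newborn neurons, had 10.7, 33.4, 47.4 and 49.5 units at E11 (35.2 ± 17.8 SD, n = 4) and 56.7, 77.5, 67.7, 54.4 and 47.7 at E13 (60.8 ± 11.8 SD, n = 5). At E18 it had 2.57, 2.56, 8.20, 2.42 and 7.84 units (4.72 ± 3.02 SD, n = 5), and at P70 a lowest of 0, a median of 0.790 and a highest of 3.0 (1.22 ± 1.15 SD, n = 6). Its mean at E13 was 12.9 times that at E18 and 49.8 times that at P70. E11 and E13 overlap at E13 library 5, and 1 of the 6 P70 libraries, which rest on 0 to 24 reads, reaches into the E18 range.

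Nhlh1 (chromosome 1, 172052292 to 172057573, minus strand), the paralog of Nhlh2, had 8.65, 8.16, 9.26 and 14.2 units at E11 (10.1 ± 2.81 SD, n = 4). At E13 it had 23.1, 21.8, 18.6, 10.9 and 21.1 units (19.1 ± 4.90 SD, n = 5). The E13 libraries other than library 4 stood above all of E11. It rose by 0.85 on the log2 scale (SE 0.255, limma adjusted p = 0.0341), a call lost when any 1 of E11 libraries 1, 2 and 3 or E13 libraries 1, 2, 3 and 5 was left out (adjusted p at most 0.0986).

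Neurod4 (chromosome 10, 130268152 to 130280240, minus strand), a bHLH relative of Neurod1, had low values throughout, on a length scale that could not be checked. It had 2.96, 4.43, 9.33 and 6.03 units at E11 (5.69 ± 2.73 SD, n = 4) and 2.37, 2.94, 3.77, 3.08 and 1.40 at E13 (2.71 ± 0.888 SD, n = 5). These values rest on 23 to 82 recovered reads a library at E11 and 9 to 34 at E13. The ages overlap through the lowest E11 library. The difference of -0.80 (SE 0.325) did not pass (limma adjusted p = 0.109).

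Insm1 (chromosome 2, 146221921 to 146225020, plus strand), a zinc-finger repressor that acts in basal progenitors and in neuroendocrine cells, had 4.74, 12.2, 15.4 and 14.0 units at E11 (11.6 ± 4.76 SD, n = 4). At E13 it had 13.7, 17.3, 10.4, 7.71 and 6.41 units (11.1 ± 4.44 SD, n = 5), over the same range. At E18 it had 1.61, 1.99, 3.62, 3.16 and 2.69 units (2.61 ± 0.825 SD, n = 5). At P70 the lowest value was 0, the median 0.843 and the highest 4.45 (1.24 ± 1.68 SD, n = 6), the last in library 5 alone. Its mean at E13 was 4.24 times that at E18, the smallest such quotient of the 5 genes.

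Btg2 (chromosome 1, 134075170 to 134079120, minus strand) had 63.3, 78.5, 61.8 and 63.6 units at E11 (66.8 ± 7.82 SD, n = 4) and 81.9, 104, 96.5, 136 and 118 at E13 (107 ± 20.5 SD, n = 5). All E13 libraries stood above all of E11. At E18 it had 10, 9.11, 5.47, 10.9 and 13.4 units (9.78 ± 2.89 SD, n = 5), and at P70 a lowest of 5.26, a median of 7.54 and a highest of 13.7 (8.79 ± 4.04 SD, n = 6). E18 and P70 cover the same range.

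Gadd45g (chromosome 13, 51846678 to 51848468, plus strand) had 101, 89.6, 74.0 and 152 units at E11 (104 ± 33.6 SD, n = 4) and 134, 122, 173, 239 and 251 at E13 (184 ± 59.1 SD, n = 5). At E18 it had 39.5, 24.6, 26.2, 28.2 and 31.2 units (30.0 ± 5.89 SD, n = 5). At P70 the lowest value was 55.5, the median 78.1 and the highest 114 (80.2 ± 18.8 SD, n = 6), on 134 to 315 reads. All P70 libraries stood above all of E18, below all of E13, and within reach of E11, where 3 of the 4 libraries lie inside the P70 range.

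From E11 to E13, 2 of the 8 genes tested rose, Gadd45g by 0.80 on the log2 scale (SE 0.24, limma adjusted p = 0.0207) and Nhlh1 as given above, and 0 fell. Of all 11567 genes tested, 9.26% were called higher and 11.2% lower. The median difference of the 8 was 0.77, against -0.04 over all genes. Btg2 (0.66, SE 0.27, limma adjusted p = 0.0952), Neurod1 (0.76, SE 0.31, adjusted p = 0.0992) and Nhlh2 (0.95, SE 0.44, adjusted p = 0.135) had fitted differences of the same sign that did not pass, and Insm1 had -0.03 (SE 0.43). The count is not firm: it was 0 to 2 as single libraries were left out and 5 with a weight per library, and the Gadd45g call was lost without E11 library 2 or 3 or E13 library 4 or 5 (adjusted p at most 0.0919).

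Among lists of related genes over the same step, 3 of 11 bHLH partners and antagonists rose, the E protein Tcf4 (1.56), the inhibitor Id4 (1.51) and Hes6 (0.93), a Hes relative that promotes neurogenesis, and 0 fell. Among Notch ligands and fringes 1 of 6 rose, the neurogenin target Dll3 (1.21, limma adjusted p = 0.0499). Of 16 early neuronal genes 5 rose, among them the neuronal tubulin Tubb3 (1.5), Stmn2 (2.13) and Elavl4 (1.37), and 0 fell. Of 5 relatives of Btg2 and Gadd45g 2 rose, Tob1 (1.44) and Gadd45a (1.11). All 8 proliferation genes fell (median -1.81).

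**Figure D2:**
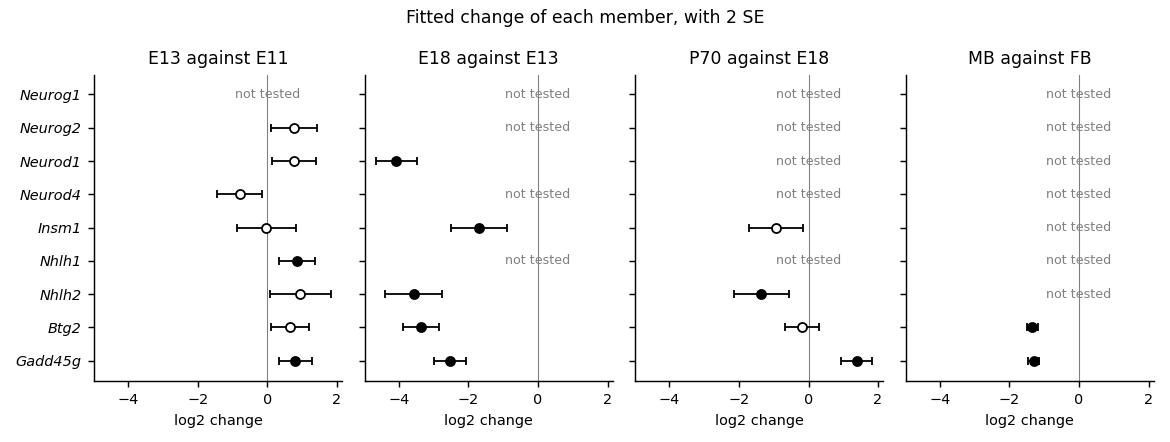
Points are fitted log2 changes of each gene in 4 comparisons, on log2(value + 1) for captured cells and on log2 counts for spheres, with bars of 2 SE; filled points passed an adjusted p of 0.05. The E18 against E13 column holds 5 filled points, all left of 0, and the P70 against E18 column holds Gadd45g to the right and Nhlh2 to the left.

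The 5 E13 libraries divided in opposite ways for different genes. E13 libraries 4 and 5 were the 2 highest of the 5 for Neurog2, Btg2 and Gadd45g and the 2 lowest for Insm1 and Nhlh2. Neurog2, for example, had 270 and 313 units there against 119 to 188 in the other 3, and Insm1 had 7.71 and 6.41 against 10.4 to 17.3. Neurod1, Nhlh1 and Neurod4 did not divide in this way. Counted from the highest, libraries 4 and 5 held ranks 3 and 5 for Neurod1 and Nhlh1 and ranks 2 and 5 for Neurod4. The same 2 libraries had the highest sums of Notch ligands and fringes (369 and 361 units, against 203 to 256) and of proliferation genes (462 and 411, against 208 to 346). They had the lowest sums of early neuronal genes (1710 and 1670, against 2220 to 3580), of dopamine neuron genes (394 and 241, against 438 to 976) and of mature neuron genes (71.8 and 43.6, against 119 to 328). Other lists divided too. Libraries 4 and 5 were the lowest for microglia genes (99.7 and 75.6, against 105 to 134) and erythroid genes (3610 and 5370, against 6250 to 13500). They were the highest for bHLH partners and antagonists (4100 and 4680, against 2420 to 3890). Floor plate sums did not divide in this way (391 and 464, against 372 to 495), nor did those of astrocyte, ependymal, endothelial and fibroblast genes. Libraries 4 and 5 also held the fewest recovered reads of the E13 libraries (2682051 and 2521800, against 3267452 to 3781844). These libraries were singled out after their values were seen, and no test was made of the division. The share of all genes that divides in this way was not counted. Without both, the E13 against E11 difference of Gadd45g was 0.49 (limma adjusted p = 0.197) and that of Nhlh1 was 1.03 (adjusted p = 0.0201).

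**Figure D3:**
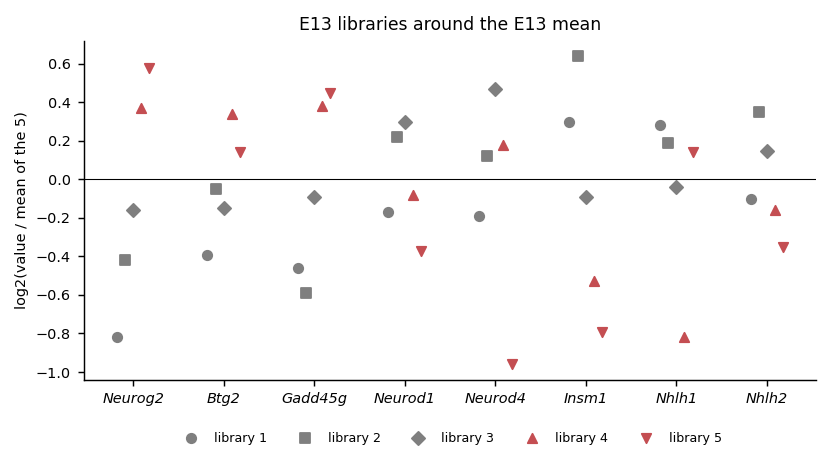
Each point is 1 E13 library, drawn as log2 of its value over the mean of the 5, for the 8 genes with values at E13; libraries 4 and 5 are in red. The red points lie above 0 for Neurog2, Btg2 and Gadd45g and below it for Neurod1, Insm1 and Nhlh2.

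To ask whether second-tier genes kept pace with Neurog2, ratios within each library were compared by exact two-sided permutation tests, chosen after the values were seen and adjusted over 10 ratio tests. The ratio of Neurod4 to Neurog2 was lower at E13 than at E11 on the log2 scale (a difference of -1.80; exact p = 0.00794, the smallest that 4 against 5 libraries can give, adjusted p = 0.0265). Without E13 libraries 4 and 5 the difference was -1.21 (exact p = 0.0286), and without E11 library 3 the exact p was 0.0536. The Neurod4 values behind this ratio rest on only 9 to 34 recovered reads a library at E13. The ratio of Insm1 to Neurog2 differed by -0.80 (adjusted p = 0.615 by the exact test), and those of Neurod1, Nhlh1, Nhlh2, Btg2 and Gadd45g to Neurog2 by -0.11 to 0.20 (adjusted p = 0.976 by the exact test).

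From E13 to E18 all 5 genes tested fell, against 24.8% of the 11797 genes tested called lower and 22.2% called higher. Their median change was -3.35, against -0.04 over all genes. Neurod1 fell by 4.07 (SE 0.29, limma adjusted p = 1.28e-08) and Nhlh2 fell by 3.57 (SE 0.41, adjusted p = 5e-07). Btg2 fell by 3.35 (SE 0.26, limma adjusted p = 1.36e-09), Gadd45g fell by 2.53 (SE 0.23, adjusted p = 1.32e-08) and Insm1 fell by 1.70 (SE 0.40, adjusted p = 0.00159). For Neurod1, Nhlh2, Btg2 and Insm1 the recovered read numbers were all even at E18 but not at E13. Whether a factor per gene between these ages enters their changes was not tested. A further 3 genes, Neurog2, Neurod4 and Nhlh1, left the table over this step and are not counted. Of all 12381 genes with values at E13, 11797 had values at E18 as well.

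Most of the pathway around them was lower at E18 as well. Of 11 bHLH partners and antagonists 9 fell, among them Id3 (-3.85) and Hes6 (-3.28), and 0 rose. Of 5 Notch ligands and fringes 3 fell, the neurogenin targets Dll1 (-2.65) and Dll3 (-3.14) and the fringe Mfng (-5.85). Of 14 early neuronal genes 10 fell, among them the cell cycle inhibitor Cdkn1c (-4.76), Ebf2 (-4.11), Sox11 (-2.40) and Myt1 (-2.68). Of the 5 relatives of Btg2 and Gadd45g 2 fell, Btg1 (-2.37) and Gadd45a (-1.93). All 7 proliferation genes tested fell, all 4 ependymal genes tested rose, and of 7 mature neuron genes 3 rose. The part of the changing cell mix in the fall of the 5 genes was not tested.

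From E18 to P70 the 4 genes still tested parted: 1 rose and 1 fell. Gadd45g rose by 1.38 (SE 0.22, limma adjusted p = 3.95e-05), a mean 2.68 times that at E18. Nhlh2 fell by 1.36 (SE 0.395, limma adjusted p = 0.00882), a call lost with a pseudocount of 5 (adjusted p = 0.0655). Btg2 differed by -0.19 (SE 0.25, limma adjusted p = 0.562). Insm1 differed by -0.93 (SE 0.39, adjusted p = 0.0591), and passed without P70 library 5 (-1.24, limma adjusted p = 0.00623) and with a pseudocount of 0.1 (-2.13, adjusted p = 0.0293), while with a pseudocount of 5 it differed by -0.32 (adjusted p = 0.227). The recovered read numbers of Insm1 were all even at E18 but not at P70. Whether a factor between these ages enters its difference was not tested. Of the 12353 genes tested, 16.8% were called higher and 23.9% lower, and the median over all of them was -0.14.

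The Gadd45 relatives moved up beside Gadd45g: Gadd45b rose by 2.83 and Gadd45a by 1.25, 2 of the 5 relatives tested, and 0 fell. Of 7 immediate early genes, which respond within minutes to stimulation and to tissue handling, 3 rose, Zfp36 (2.66), Atf3 (3.23) and Ier2 (0.82). Summed over the same 7 genes, their level was 22.3 to 38.7 units at E18 and 68.5 to 129 at P70, in groups that do not overlap. Microglia genes rose in 5 of 7 (54.2 to 192 units at E18, 213 to 344 at P70), and the 3 oligodendrocyte lineage genes with values at both ages summed to 34.2 to 54.3 and 190 to 659 units. Ependymal sums were 3860 to 5440 units at E18 and 10400 to 17100 at P70, with 5 of the 6 genes called higher. Astrocyte sums were 312 to 448 units at E18 and 552 to 673 at P70. Of these 6 astrocyte markers, 3 were called higher and 1 lower. The part of any of these lists in the rise of Gadd45g was not tested. By contrast 7 of 10 early neuronal genes fell, among them Tubb3 (-2.94), Sox11 (-2.73) and Stmn2 (-2.91), and the Notch ligand Dll3 fell (-1.83). Olig2, a bHLH factor of oligodendrocyte and motor neuron progenitors, fell too (-1.47).

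The ratio of Gadd45g to Btg2 shows how the pair drew apart, free of any scaling that all genes of a library share. A factor that differs between ages for 1 of the genes would not cancel. The recovered read numbers of Btg2 were all even at E18 and P70 but not at E13, and those of Gadd45g were not. Whether such a factor enters the E18 against E13 difference was not tested. It was 1.14 to 2.38 at E11 (median 1.39) and 1.17 to 2.12 at E13 (median 1.76). It was 2.33 to 4.79 at E18 (median 2.70) and 5.80 to 14.8 at P70 (median 9.29), with no overlap from E13 on. The log2 ratio differed by 0.14 between E13 and E11 (exact permutation p = 0.548, adjusted 0.976). It was higher by 0.92 at E18 than at E13 (exact p = 0.00794, the smallest possible, adjusted p = 0.0265) and by 1.64 at P70 than at E18 (exact p = 0.00433, adjusted p = 0.0265). These ratios belong to the same 10 tests, and both later differences kept an exact p of at most 0.0179 with any 1 library, or E13 libraries 4 and 5, left out.

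**Figure D4:**
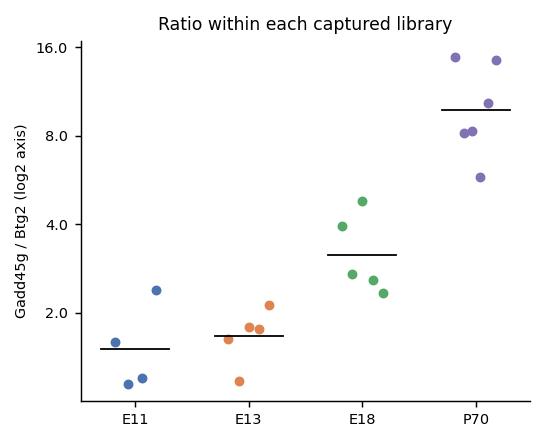
Each point is the Gadd45g value over the Btg2 value in 1 captured library, on a log2 axis, and each bar is the geometric mean of an age. E11 and E13 share a range under 2.38, E18 lies from 2.33 to 4.79 and P70 from 5.80 to 14.8.

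In the spheres, Btg2 and Gadd45g were well counted and the 5 other genes analysed were at or near 0. Neurog1 had 1 count in the 5 MB libraries together and 0 in the 5 FB libraries, where a count of 0 allows up to 0.323 to 0.449 CPM (counts scaled to the size of the library) in a library (3 counts, counting error only). Insm1 had 1 count in MB and 6 in FB, and Nhlh2 4 and 13. Neurod1 had 21 counts in MB, 16 of them in MB3, and 67 in FB, with 2 MB libraries and 1 FB library at 0. Neurod4 had 11 counts in MB, all in MB3, and 25 in FB, in 2 libraries. These 5 genes did not pass the filter on low counts. With no filter none of the 5 passed in edgeR's quasi-likelihood test, the lowest adjusted p being that of Neurod1 (0.221, unadjusted 0.0602).

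Btg2 had 106, 119, 103, 86.5 and 94.7 CPM in MB1 to MB5 (102 ± 12.1 SD, n = 5) and 251, 277, 253, 248 and 235 CPM in FB1 to FB5 (253 ± 15.3 SD, n = 5). Gadd45g had 89.4, 84.3, 71.6, 81.2 and 89.3 CPM in MB (83.2 ± 7.34 SD, n = 5) and 222, 206, 190, 200 and 188 CPM in FB (201 ± 13.8 SD, n = 5). The groups did not overlap for either gene, and the FB mean was 2.49 times the MB mean for Btg2 and 2.42 times for Gadd45g. In edgeR's quasi-likelihood test both were lower in MB, Btg2 by -1.34 (SE 0.08, adjusted p = 1.41e-10) and Gadd45g by -1.30 (SE 0.08, adjusted p = 1.79e-10). Of the 12886 genes tested, 14.3% were called lower and 15.3% higher in MB.

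**Figure D5:**
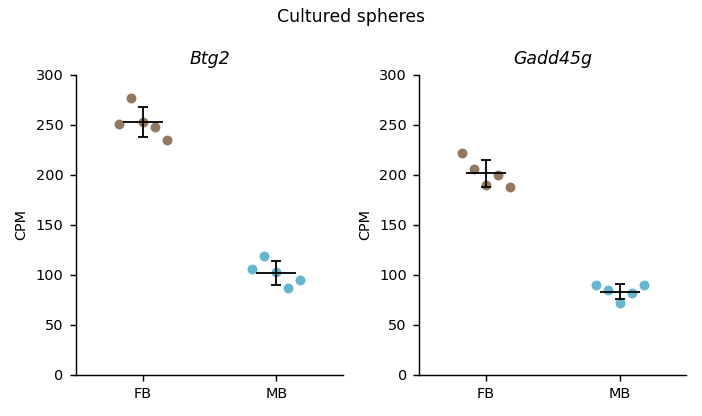
CPM of Btg2 and Gadd45g in 5 FB and 5 MB sphere libraries; points are libraries, and the black marks are the mean and SD. FB libraries lie from 235 to 277 for Btg2 and from 188 to 222 for Gadd45g, above MB libraries at 86.5 to 119 and 71.6 to 89.4.

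Of 6 Notch ligands and fringes 4 were lower in MB spheres, among them Dll1 (-1.46) and Mfng (-1.75), and 0 were higher. Of 10 bHLH partners and antagonists 7 were lower and 1 higher; the lower ones include the Notch effectors Hes5 (-2.20) and Hey1 (-1.26), the E protein Tcf12 (-0.62) and the inhibitor Id1 (-0.96). Immediate early genes were lower in 8 of 10, among them Jun (-1.12), Dusp1 (-1.08) and Fos (-0.59), and their sum was 1840 to 2140 CPM in MB and 2530 to 2750 in FB. Proliferation genes were lower in 5 of 8 (1540 to 1650 against 1900 to 2120 CPM). The part of either in the difference of Btg2 and Gadd45g was not tested. Relatives did not follow as a group: Gadd45a was higher in MB (2.20) and Btg1 lower (-0.51), 1 each of 6. The bHLH gene Olig2 was higher in MB (0.31), and of 9 early neuronal genes 2 were higher and 2 lower.

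Genes most like each of them across libraries were found by the root mean square (RMS) difference in log2(value + 1) after centring. The genes compared had values at exactly the same ages and a mean of at least 5 units at 1 or more of them. This is a description, and libraries of an age share their position in it. Nhlh2, over 20 libraries and 9891 genes, had among its nearest genes Hes6 (RMS 0.71) and Dll3 (0.75), against a median of 2.06 over all genes compared. Neurod1, over 14 libraries and 250 genes, was nearest to Ebf2 (0.57) and Myt1 (0.73; median 1.51). Neurog2, over 9 libraries and 130 genes, was nearest to Mfap4 (0.35) and Igfbpl1 (0.43; median 1.26). Btg2 was nearest to Apex1 (0.48), 2700060E02Rik (0.49) and Cdk4 (0.50, against a median of 1.61), while Gadd45g was nearest to the creatine kinase Ckb (0.37, median 1.13). Insm1 was nearest to Efnb2 and Mir703 (0.47 each, median 1.3). Neurod4 was nearest to Lef1 (0.27) and 1810011O10Rik (0.4, median 0.79). Nhlh1 was nearest to Gm15055 (0.36) and Mfap4 (0.42, median 1.33). Neurog1, over 4 libraries and 29 genes, was nearest to Ticrr (0.42, median 0.86).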

How the data were processed

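RNA was extracted with a Qiagen micro kit and turned into cDNA by Smart-seq2 and Tn5 libraries, per the labels' protocols, with polymerase chain reaction and without molecular identifiers or strand marks. The upper limit given for sphere libraries without a Neurog1 count therefore covers counting error only. The SE bars rest instead on the spread between libraries. Without strand marks, overlapping or antisense genes cannot be told apart. Per the submitters' processing notes, the tools include STAR 2.3, Salmon 1.6.0 and DESeq2 1.34.0, and the genome builds are GRCm39 and mm10, without saying which served which table. The counting of reads is not given in the sources that were used.

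For the captured libraries, the deposited values are normalized in a unit that no label names. They are not whole counts and behave as RPKM: for 11992 of 14997 genes (80.0%), values were whole multiples of a step within 0.005 reads. The recovered read numbers may be off by a factor per gene, and that factor may differ between ages. At E18 all recovered numbers were even for Neurod1, Insm1, Nhlh2 and Btg2, but not at E11 and E13. The read numbers printed for these genes at E18 may therefore be too high, and so may those of Nhlh2 and Btg2 at P70, which were also all even. The units that a read is worth may then differ between ages too. That would touch the E18 against E13 differences of Neurod1, Insm1, Nhlh2 and Btg2 and the P70 against E18 difference of Insm1, and it was not tested. Of 15139 lines, 142 with 1 of 11 repeated symbols were left out. The deposited sphere counts are whole numbers. Value columns left out numbered 0.

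Ages were compared by limma 3.58.1 (R 4.3.3) in 1 fit of all 20 captured libraries, with a prior trend, over genes with values at both ages. The scale, log2(value + 1), understates the change of low genes. Spheres were compared by edgeR 4.0.16 (TMM scaling, default filter, quasi-likelihood test). Benjamini-Hochberg adjustment ran over every gene tested in a comparison, and the threshold was 0.05. The SE of an edgeR change is the change over the root of its F statistic. Gene positions come from GENCODE on GRCm38 and promoters from RefSeq on GRCm38.p6.

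The genes and lists were chosen with earlier results of these data known. Named genes were all 9 genes, at most 4 of each list with the smallest p, and the nearest 5 by RMS difference, of which some are printed; some genes that this rule selects are left out of the text. Alternatives were other pseudocounts, filters, scalings, weights, tools, a replicate block and libraries left out. Leaving out both E13 libraries 4 and 5 and edgeR on recovered reads were added after seeing the data, as were the ratio tests.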

Additional observations from a re-analysis of the deposited data

Results flagged for a closer look

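In 5 of 40 gene and group pairs, 1 library stood far from the others of its group by Dixon's criterion. Chance meets it in about 1 in 20 groups of continuous values, a rate that does not hold where all libraries but 1 are at 0, as in the 3 cases from sphere library MB3: there any count at all meets it. Neurog1 had 0.119 CPM there, a single count, with the other MB libraries at 0. Insm1 had 0.119 CPM there, also a single count, with the others at 0. Neurod4 had 1.31 CPM there (11 counts), with the others at 0. Insm1 had 4.45 units in P70 library 5, against 0 to 1.31 in the other 5. Btg2 had 78.5 units in E11 library 2, against 61.8 to 63.6 in the other 3.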

How the results depend on the processing

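All 5 calls from E13 to E18 and both sphere calls held under every alternative run (19 and 15). For E13 against E11 the count of genes called, 2 as reported, was 5 with a pseudocount of 5, 4 with only the 2 ages in the fit, 5 with a weight per library, 4 with edgeR on whole reads recovered, 1 without E13 libraries 4 and 5, and 0 to 2 with single libraries left out. For P70 against E18 it was 1 in place of 2 with a pseudocount of 5 and with a mean of at least 5 units, where fewer genes are tested, 3 with a pseudocount of 0.1, where Insm1 passed (-2.13, limma adjusted p = 0.0293), and 2 to 3 with single libraries left out. The causes were not tested. The E13 against E11 difference of Insm1 changed sign, to 0 with median-ratio scaling and with edgeR on reads, 0.03, 0.13 and 0.09 without E11 replicates 2, 3 and 4, 0.07 and 0.13 without E13 replicates 4 and 5, and 0.31 without both; leaving out 1 library gave -0.37 to 0.13 in all. Btg2 and Neurod1 passed for E13 against E11 under 4 settings each and Nhlh2 under 2. Replicate numbers did not pair libraries: correlations of deviations ran from -0.11 to -0.03 for E11 and E13, -0.15 to 0.25 for E13 and E18, -0.05 to 0.09 for E18 and P70 and -0.02 to 0.04 for FB and MB. With a replicate block 2 genes were called for E13 against E11, with Nhlh1 (0.80, limma adjusted p = 0.105) lost and Neurog2 (0.61, adjusted p = 0.042) gained, and counts in the other comparisons were 5, 2 and 2. Depth limits Neurod4 at E13 (9 to 34 reads), Neurod1 at E18 (2 to 22 reads) and Insm1 and Nhlh2 at P70 (0 to 32 and 0 to 24 reads).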
